A study of Bos taurus with 14 samples.

Results

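A group of 16 genes was read at trace level in bovine embryos on Day 2 and at clear levels in every Day-4 library, whatever the environment in which the embryos had passed through embryonic genome activation (EGA). The genes were chosen from 27607 Ensembl genes by their counts alone. A gene was taken when it had at most 3 counts in each of the 5 Day-2 libraries and at least 10 CPM (the usual scaling of a gene's count to the total count of its library) in each of the 9 Day-4 libraries. Genes of the mitochondrial ID block, the energy-regulation genes tabulated by the study and the genes it lists as histones were to be left out, but none of them met both limits. Since the difference between Day 2 and Day 4 is what chose these genes, that difference is given below as a description and was not tested.

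The early embryo lives on RNA and protein that the oocyte stored, and its own genome is at first almost silent. During EGA stored maternal transcripts are cleared while transcription from the embryonic genome takes over. In cattle the major wave of this activation falls between the stages sampled here. A transcript that is close to absent before the wave and present after it has little stored RNA beneath the later signal.

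Each library was made from a pool of embryos. All embryos, including those that later entered a cow, were produced in vitro from abattoir ovaries with the sperm of a single bull. The Day-2 group (n = 5) held 4-cell embryos from in vitro culture. On Day 4 the embryos had 16 cells and came from 3 environments (n = 3 each): culture in synthetic oviduct fluid throughout (IVC), or the oviduct of a cow into which in vitro produced embryos had been transferred on Day 2. The recipients were primiparous Holstein-Friesian cows in the weeks after calving, which were either dried off at calving and never milked (DRY) or milked from calving on (LACT). By the study's account the embryos of an in vivo pool came from the same cow, so that a DRY or LACT library would stand for a cow. Whether the libraries of a group came from separate cows was not tested. The cows' ages are not given in the sources used here. Nothing states that the pools of the in vitro groups came from separate cultures, and the p-values below measure the spread between these libraries only.

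The total count per library lay between 27790816 and 30120040 on Day 2 and between 22711367 and 40357379 on Day 4. A single count was worth 0.0332 to 0.0360 CPM in a Day-2 library. In the Day-4 groups 3 libraries did not vary independently of the others. For all 16 genes the CPM of IVC replicate 1 fell between those of IVC replicates 2 and 3, and it was within 2.86% of their mean. The same held for DRY replicate 3 (within 2.61%) and LACT replicate 3 (within 1.07%). It follows that no other Day-4 library was the middle one of its group for any of the 16 genes. Whether groups overlap in CPM is thus decided by 2 libraries per group for these genes. Results between Day-4 groups are for this reason given with all 9 libraries and with these 3 left out. The fit on 9 libraries treats these 3 as independent, so its standard errors and FDRs may be too small. The count table gives Ensembl IDs without symbols and the RefSeq table used here holds none of these IDs, so genes are named by ID. For the same reason, marker genes of oocyte, cumulus, oviduct, blood and sperm cells could not be looked up, and the stage labels were not checked against markers. The study's enrichment lists, some of them shortened, attach an annotation term to 5 of the 16 genes.

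The label of silence on Day 2 did not hold in a strict sense. Not a single gene that reached 10 CPM in each Day-4 library was at 0 in all Day-2 libraries, and none had a highest Day-2 count of 1. Each of the 16 genes was read in at least 2 Day-2 libraries and 7 of them were read in all 5. Over the 5 libraries together a gene collected between 4 and 11 reads (median 7). This corresponded to 0.0277 to 0.0763 CPM for the pooled Day-2 libraries. The reads of all 16 genes summed to 30, 25, 29, 16 and 13 in Day-2 replicates 1 to 5. Replicates 4 and 5 lacked reads for 5 and 7 of the genes, against 1 gene in each of the other Day-2 libraries. The cause of this difference was not tested.

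On Day 4 the same 16 genes collected between 13788 and 24752 reads per library, or 0.0526% to 0.0818% of all counts. Their summed level was 753 ± 65.1 CPM in IVC, 595 ± 17.1 CPM in DRY and 637 ± 113 CPM in LACT (SD, n = 3 each), against 0.786 ± 0.272 CPM on Day 2 (SD, n = 5). In each gene the lowest Day-4 library was at least 102.7-fold above the highest Day-2 library. The limits alone force most of this gap, as they set 10 CPM against 3 counts, worth at most 0.108 CPM on Day 2. CPM is a share of the reads in a library, and in pooled embryos fewer cells that carry a transcript and less of it per cell cannot be told apart. The 10 genes with the highest counts took 40.6% to 46.8% of the reads of a Day-4 library, against 11.0% to 19.6% on Day 2. With those genes left out of the total, the mean share of the 16 genes rose from 0.0662% to 0.116%.

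**Figure D1:**
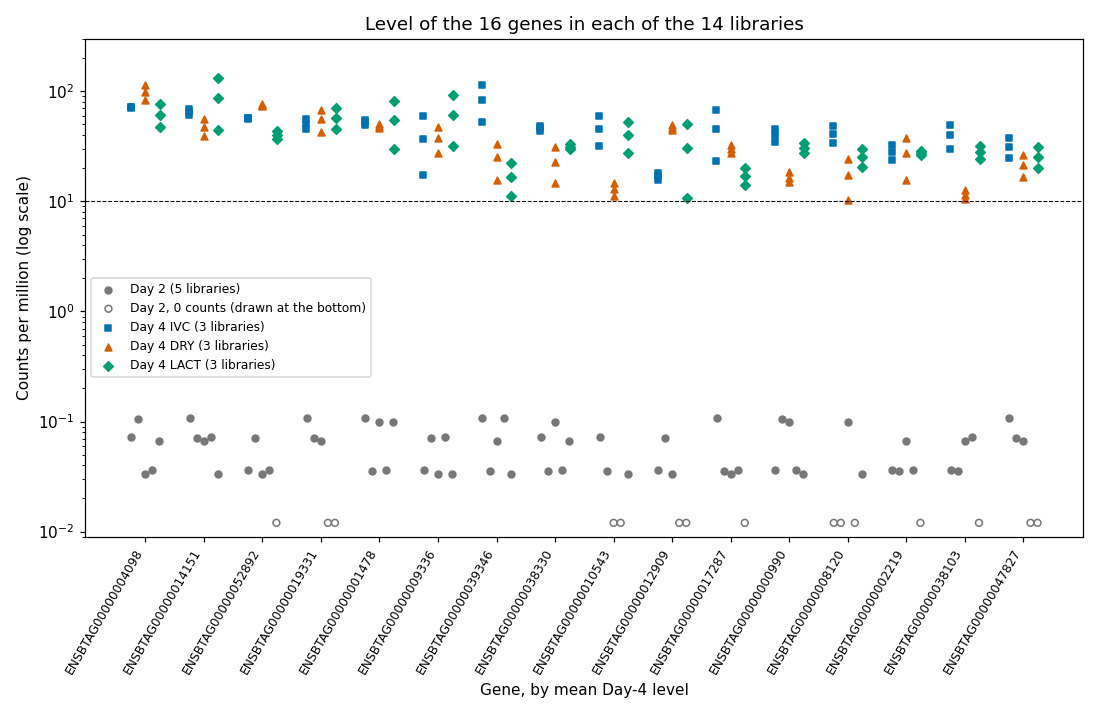
Level of each of the 16 genes in each of the 14 libraries, in CPM on a log scale, with genes ordered by mean Day-4 level. Grey circles are the 5 Day-2 libraries (open circles at the bottom stand for 0 counts), coloured symbols the 3 IVC, 3 DRY and 3 LACT libraries, and the dashed line the limit of 10 CPM. All Day-4 points lie above the line and all Day-2 points at or below 0.108 CPM.

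The limits cut through a continuous range of genes. In all, 4209 genes reached 10 CPM in every Day-4 library, and the 16 genes were 0.380% of them. Among genes at 0 in every Day-2 library, of which there were 9397, 32 reached 1 CPM in each Day-4 library and the highest of the lowest Day-4 values was 8.14 CPM. A highest Day-2 count of 2 was held by 6 of the 16 genes and a count of 3 by the other 10, and 4 further genes over the Day-4 limit had a highest Day-2 count of 4. Closest to the Day-4 limit from inside were ENSBTAG00000008120, with 10.2 CPM in its lowest library, and ENSBTAG00000038103, with 10.6 CPM. The nearest genes outside had 9.95 and 9.73 CPM in their lowest Day-4 library and at most 1 and 2 Day-2 counts. Nearest to the Day-2 limit were ENSBTAG00000001478, with 11 reads over the 5 libraries, and ENSBTAG00000039346 and ENSBTAG00000014151, with 10 reads each. The ratio of mean Day-4 CPM to pooled Day-2 CPM was at least as high as in the lowest of the 16 genes for 43 of the 4209 genes, so the rule did not simply take the steepest rises.

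**Figure D2:**
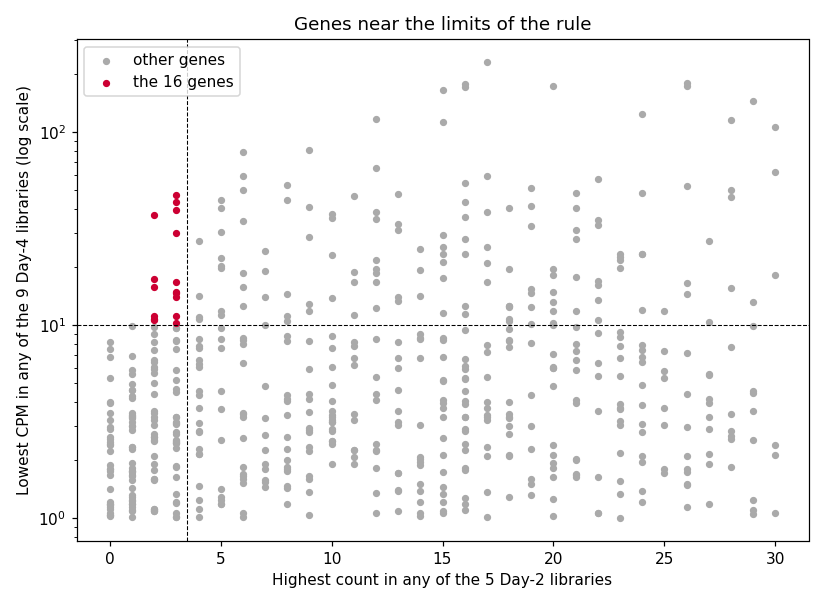
Highest count in any Day-2 library (horizontal axis, up to 30 counts) against the lowest CPM in any Day-4 library (vertical axis, log scale) for genes with at least 1 CPM in each Day-4 library. The dashed lines are the limits of 3 counts and 10 CPM. Red points are the 16 genes, and the points at 0 Day-2 counts end at 8.14 CPM.

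The ratio of Day 4 to Day 2 can be known only roughly, because a handful of Day-2 reads stands below it. The highest value was that of ENSBTAG00000052892, which had 1, 2, 1, 1 and 0 counts in the 5 Day-2 libraries and a mean of 57.4 ± 15.2 CPM on Day 4 (SD, n = 9). Its ratio was 1656, with a 95% interval of 709.6 to 5099.9 from the exact Poisson interval of the pooled Day-2 count. ENSBTAG00000004098, listed by the study under phosphoprotein and acetylation, had 2, 3, 1, 1 and 2 Day-2 counts and a mean of 77.5 ± 19.97 CPM on Day 4. Its ratio was 1242 (interval 654 to 2716). At the other end, ENSBTAG00000000990 had 1, 3, 3, 1 and 1 Day-2 counts, 29.2 ± 10.9 CPM on Day 4 and a ratio of 468 (interval 247 to 1024). The intervals cover counting error only, and those of the highest and the lowest ratio overlap. Reads were counted per gene and not per length, so the order of CPM between genes is not an order of transcript number.

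The study asked whether the environment during EGA changed gene expression in the embryo. For these genes the rule asked only for a minimum in each Day-4 library and used no difference between Day-4 groups. Differences between DRY, LACT and IVC were tested with edgeR's quasi-likelihood test on the 9 Day-4 libraries, with Benjamini-Hochberg adjustment (FDR) over 12069 genes. Across the 3 groups 5 of the 16 genes (31.2%) had an FDR under 0.05, against 18.4% of all genes tested and 17.5% of the 4209 genes over the Day-4 limit. A single gene counts for 6.25% here. These 5 genes were ENSBTAG00000039346, ENSBTAG00000038103, ENSBTAG00000010543, ENSBTAG00000052892 and ENSBTAG00000000990. When 1 of the middle libraries was left out this number was lower, at 2 without IVC replicate 1 (5.25% of all genes), 1 without DRY replicate 3 (5.72%) and 2 without LACT replicate 3 (5.73%). With all 3 left out, 0 of the 16 genes passed, where the same test called 1.12% of all 12133 genes. An unadjusted p under 0.05 was then held by 1 gene, ENSBTAG00000039346, and by 8.52% of all genes, and no other tool was run on 2 libraries per group.

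Between DRY and IVC the genes under the FDR limit were all lower in DRY, though 1 gene higher in DRY passed under some alternatives. In DRY 4 of the 16 genes (25%) had an FDR under 0.05 and all 4 were lower than in IVC, against 13.8% of all genes called, of which 7.87% of all genes were lower in DRY and 5.95% higher. Of the 4209 genes over the Day-4 limit 12.5% were called, 6.96% lower and 5.58% higher in DRY. The median log2 fold change of the 16 genes was -0.51, that of all genes tested -0.08 and that of the 4209 genes -0.07. Without DRY replicate 3 the number was 1 (ENSBTAG00000038103), where 3.88% of all genes were called. Without LACT replicate 1 it was 7, where 17% of all genes were called, and of these 7 6 were lower and 1 higher in DRY. Without LACT replicate 2 it was 5, with 4 lower and 1 higher, where 15.3% of all genes were called. With 2 libraries per group 0 of the 16 genes passed (0.734% of all genes), while 3 (10.2% of all genes) were under 0.05 before adjustment.

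ENSBTAG00000038103 was at 40.0, 49.7 and 30.0 CPM in IVC replicates 1 to 3 and at 12.6, 10.6 and 11.5 CPM in DRY. All DRY libraries lay below all IVC libraries, and DRY was lower, at -1.82 on the log2 scale (standard error 0.30; FDR of 0.00562 in edgeR's quasi-likelihood test). The LACT libraries, at 24.3, 32.0 and 28.1 CPM, lay between, overlapping with IVC and not with DRY. In this gene DRY was also lower than LACT (log2 fold change -1.17, standard error 0.29, FDR 0.0369 from the same test). With 2 libraries per group that test gave DRY against IVC a standard error of 0.68 and an FDR of 0.428. For DRY against LACT it gave 0.67 and 0.725.

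ENSBTAG00000010543, listed under phosphoprotein and repeat, also had its lowest level in DRY. It was at 45.7, 59.3 and 32.1 CPM in IVC, 11.2, 14.8 and 12.9 CPM in DRY and 52.8, 27.5 and 40.0 CPM in LACT. DRY lay below every IVC and every LACT library, whereas IVC and LACT overlapped. Against IVC the log2 fold change of DRY was -1.87 (standard error 0.37, FDR 0.0135) and against LACT -1.56 (standard error 0.37, FDR 0.0314; edgeR's quasi-likelihood test for both). With 2 libraries per group the same test gave standard errors of 0.68 for both and FDRs of 0.423 and 0.574.

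In ENSBTAG00000000990 the IVC libraries were at 40.4, 45.9 and 34.5 CPM and the DRY libraries at 18.5, 14.9 and 16.4 CPM. LACT, at 27.5, 34.2 and 30.7 CPM, overlapped with neither group. DRY differed from IVC by -1.31 on the log2 scale (standard error 0.26; FDR of 0.0131 in the same test), and LACT differed from neither group at an FDR under 0.05. With 2 libraries per group that test gave DRY against IVC a standard error of 0.63 and an FDR of 0.540.

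ENSBTAG00000039346 was the gene that varied most over the Day-4 libraries, with a coefficient of variation of 85.6%. It was at 83.3, 115 and 52.2 CPM in IVC, at 15.8, 33.5 and 25.1 CPM in DRY and at 11.2, 22.2 and 16.5 CPM in LACT. Every IVC library lay above every library from a cow, and DRY and LACT overlapped. LACT was below IVC, at -2.50 on the log2 scale (standard error 0.40, FDR 0.00863) and so was DRY, at -1.82 (standard error 0.39, FDR 0.0180; edgeR's quasi-likelihood test for both). With 2 libraries per group the same test gave LACT a standard error of 0.68 and an FDR of 0.349. For DRY it gave 0.66 and 0.418. DRY and LACT were not told apart (0.68, standard error 0.38, FDR 0.286 from the same test).

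For LACT against IVC, ENSBTAG00000039346 was the 1 gene of the 16 to pass (6.25%), where 8.43% of all genes were called, 3.94% higher and 4.5% lower in LACT. Of the 4209 genes over the Day-4 limit 8.48% were called, 2% higher and 6.49% lower in LACT. The median log2 fold change of the 16 genes was -0.36, against -0.03 for all genes tested and -0.17 for the 4209. As for DRY against IVC, 12 of the 16 genes were negative and 4 positive. Without IVC replicate 1 or without LACT replicate 3 none of the 16 passed, where 1.02% and 1.08% of all genes did. Without IVC replicate 3 or without LACT replicate 1 there were 2 (5.98% and 5.94% of all genes). In the fit on 2 libraries per group 0 passed (0.429% of all genes), while 1 (6.51% of all genes) was under 0.05 before adjustment. ENSBTAG00000017287 lay at the margin. Its IVC libraries, at 45.2, 67.9 and 23.4 CPM, were all above the LACT libraries, at 20.02, 14.02 and 16.9 CPM, and the difference of -1.56 on the log2 scale (standard error 0.41) had an FDR of 0.0503 in the same test.

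Between DRY and LACT, the comparison of maternal metabolic status, 3 of the 16 genes (18.8%) had an FDR under 0.05, against 9.65% of all genes tested, of which 4.01% of all genes were higher and 5.64% lower in DRY. Of the 4209 genes over the Day-4 limit 7.96% were called, 5.42% higher and 2.54% lower in DRY. ENSBTAG00000010543 and ENSBTAG00000038103 were lower in DRY, as given above. ENSBTAG00000052892 was higher in DRY, at 73.7, 76.7 and 74.5 CPM against 43.4, 37.0 and 40.1 CPM in LACT, and the groups did not overlap. The difference was 0.99 on the log2 scale (standard error 0.19), with an FDR of 0.0157 in edgeR's quasi-likelihood test. With 2 libraries per group that test gave a standard error of 0.48 and an FDR of 0.615. The IVC libraries of this gene, at 57.2, 56.2 and 57.8 CPM, lay between both in vivo groups without overlap. None of the 3 calls remained without IVC replicate 1, without DRY replicate 3 or without LACT replicate 3, where 4.54%, 2.35% and 2.15% of all genes were called. Without DRY replicate 2 that of ENSBTAG00000052892 remained (7.18% of all genes). With 2 libraries per group 0 passed (0.668% of all genes), while 1, ENSBTAG00000010543, was under 0.05 before adjustment (8.37% of all genes).

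**Figure D3:**
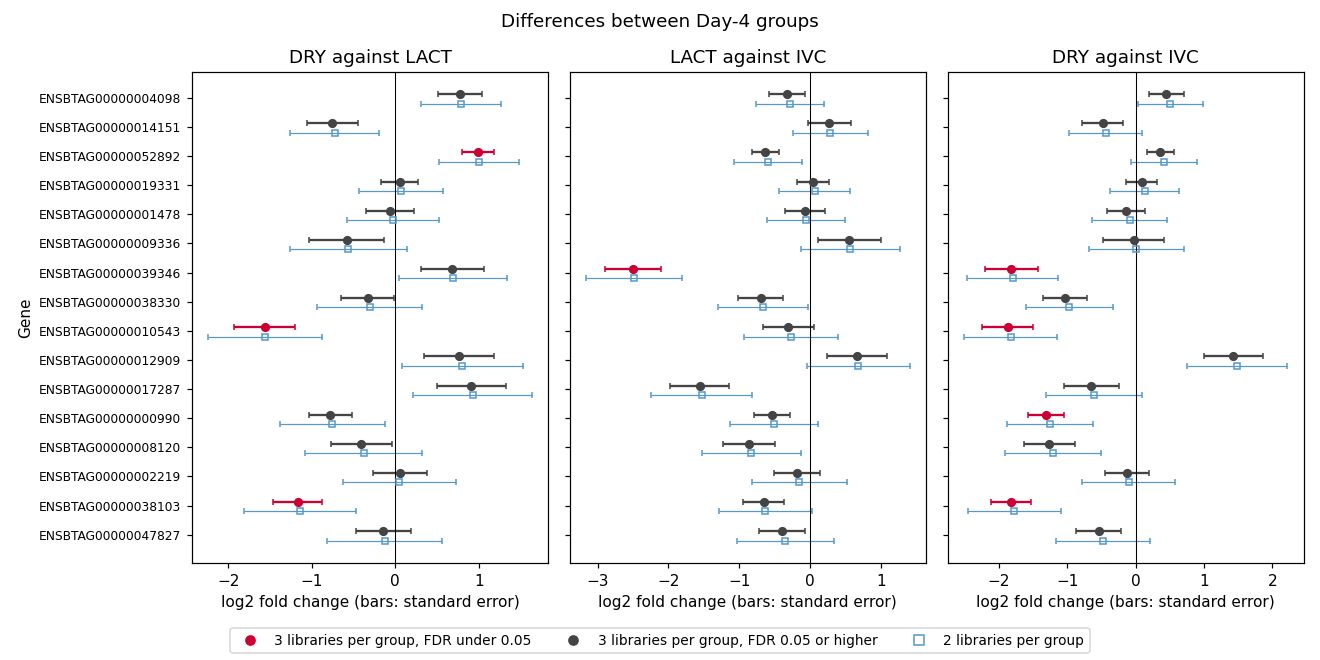
Log2 fold change of each of the 16 genes in the 3 comparisons between Day-4 groups, positive where the group named first was higher, with bars of 1 standard error. Filled circles are the fit on 3 libraries per group (red where the FDR was under 0.05, 8 points in all) and open blue squares the fit on 2 libraries per group. The squares lie close to the circles, as the libraries left out were at the mean of their group, and their bars are longer.

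A library at the mean of the others of its group cannot move the mean of that group much, so the log2 fold changes without the middle libraries, which differed by at most 0.06, are no check of the estimates. The median standard error of the 16 genes went from 0.32 to 0.67 for DRY against IVC, from 0.32 to 0.66 for DRY against LACT and from 0.32 to 0.66 for LACT against IVC. The lowest FDR of any of the 16 genes was then 0.349 (edgeR's quasi-likelihood test, LACT against IVC).

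Among the genes that passed in no comparison, several had groups that did not overlap. In total the CPM of DRY and IVC did not overlap for 10 of the 16 genes (62.5%), against 36.2% of all genes tested. For DRY and LACT this was so for 6 genes (37.5%, against 33.3%) and for LACT and IVC for 6 (37.5%, against 35.4%). For the 16 genes these counts rest on 2 libraries per group, as the middle libraries were never the highest or lowest. ENSBTAG00000008120, which the study lists under lysosome, the degradative compartment of the cell, and under endoplasmic reticulum membrane, was at 41.2, 48.1 and 34.0 CPM in IVC and at 24.5, 10.2 and 17.3 CPM in DRY. The groups did not overlap, and the log2 fold change of -1.26 (standard error 0.37) had an FDR of 0.0526 from the same test. Its LACT libraries were at 20.4, 30.1 and 25.1 CPM, all below IVC.

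ENSBTAG00000038330 was at 46.6, 48.9 and 43.8 CPM in IVC, 31.4, 14.6 and 22.9 CPM in DRY and 29.9, 33.1 and 31.4 CPM in LACT. All libraries from cows lay below those from culture, with log2 fold changes of -1.03 for DRY (standard error 0.32, FDR 0.0606) and -0.70 for LACT (standard error 0.32, FDR 0.198; edgeR's quasi-likelihood test for both). ENSBTAG00000012909 had the opposite order for DRY and IVC, at 44.1, 49.6 and 46.5 CPM against 17.0, 15.8 and 18.1 CPM (log2 fold change 1.43, standard error 0.43, FDR 0.0562 from the same test). ENSBTAG00000004098 was likewise above IVC in every DRY library, at 115, 84.2 and 98.4 CPM against 71.8, 70.1 and 72.7 CPM, but the FDR was 0.271 (same test). In LACT, at 76.5, 47.0 and 61.5 CPM, it lay below all DRY libraries.

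When the group means of CPM were ranked, IVC was the highest group for 9 of the 16 genes, DRY for 3 and LACT for 4. DRY was the lowest for 10 genes, LACT for 4 and IVC for 2. By the fitted differences, which use TMM scaling, IVC was highest for 10, DRY for 4 and LACT for 2, and DRY was lowest for 9 and LACT for 5. The order differed between both scales for 3 genes, ENSBTAG00000019331, ENSBTAG00000001478 and ENSBTAG00000002219. The most frequent order by CPM, IVC over LACT over DRY, was found in 7 genes. It included ENSBTAG00000002219 and ENSBTAG00000047827, in which no pair of groups was told apart. ENSBTAG00000002219 is listed under mitochondrion nucleoid, the packaged form of mitochondrial DNA, and under ATPase activity. It was at 28.4, 32.6 and 24.0 CPM in IVC, 15.7, 37.9 and 27.5 CPM in DRY and 26.7, 28.5 and 27.5 CPM in LACT, so that DRY spanned both other groups. ENSBTAG00000047827, listed under isomerase, was at 31.1, 24.7 and 37.5 CPM in IVC, 26.6, 16.8 and 21.4 CPM in DRY and 31.0, 19.9 and 25.4 CPM in LACT.

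**Figure D4:**
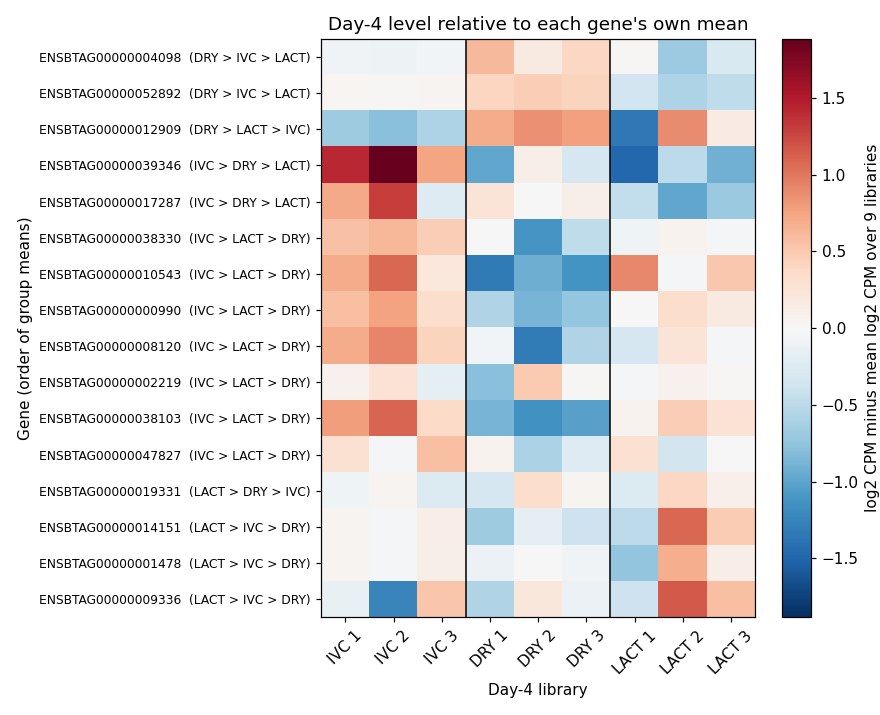
Log2 CPM of the 16 genes in the 9 Day-4 libraries, each minus the mean of that gene over the 9 libraries. Rows are genes sorted by the order of their group means, columns are libraries, and the vertical lines part IVC, DRY and LACT. IVC columns are red and DRY columns blue for most of the 7 genes in the order IVC over LACT over DRY, and LACT replicate 2 is the reddest column in the bottom rows.

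The spread within a group was as wide as the differences between groups in some genes, and widest in LACT. The ratio of the highest to the lowest library of a group had a median over the 16 genes of 1.35 in IVC, 1.39 in DRY and 1.55 in LACT, and reached 3.42, 2.42 and 4.71. LACT replicate 2 was more than 1.5-fold above LACT replicate 1 for 6 genes and more than 1.5-fold below it for 3. ENSBTAG00000012909 was at 10.7 CPM in LACT replicate 1 and 50.5 CPM in LACT replicate 2, with 30.3 CPM in replicate 3. ENSBTAG00000014151 was at 44.5, 132 and 87.7 CPM in LACT, against 65.3, 61.4 and 68.7 CPM in IVC and 39.6, 56.0 and 47.8 CPM in DRY. The LACT libraries of this gene lay on both sides of the IVC libraries.

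ENSBTAG00000001478 showed the same split, at 30.0, 81.0 and 55.1 CPM in LACT, while its IVC (52.2, 49.3 and 54.7 CPM) and DRY libraries (46.9, 50.0 and 48.0 CPM) lay close together. ENSBTAG00000009336 was at 31.6, 92.1 and 61.3 CPM in LACT, 27.8, 47.7 and 38.0 CPM in DRY and 37.3, 17.3 and 59.4 CPM in IVC, so that all 3 groups overlapped. None of these 3 genes had an FDR under 0.05 in any comparison. As each in vivo library holds, by the study's account, embryos of a single cow, a difference between cows and a difference between pools cannot be told apart.

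The steadiest of the 16 genes was ENSBTAG00000019331. It was at 50.8, 55.9 and 45.2 CPM in IVC, 43.2, 68.0 and 55.8 CPM in DRY and 45.3, 70.3 and 57.5 CPM in LACT, with a coefficient of variation of 17.8% over the 9 libraries. All groups overlapped, and its log2 fold changes lay between 0.04 and 0.09 with standard errors of 0.23. ENSBTAG00000002219 (21.8%), ENSBTAG00000047827 (24.6%) and ENSBTAG00000001478 (25.4%) followed. Next to ENSBTAG00000039346, the most variable were ENSBTAG00000017287 (54.3%), ENSBTAG00000010543 (54.1%) and ENSBTAG00000012909 (52.1%). Over all 16 genes the median coefficient of variation was 39.8%. It was 33.5% over the 2065 genes above the Day-4 limit whose mean level lay within the range of the 16 genes.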

How the data were processed

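RNA of pools of bovine embryos was sequenced as single-end reads from libraries made without ribosomal depletion or polyA enrichment. The authors deposited whole-number read counts per Ensembl gene for 14 libraries, with no normalization stated. Per the labels and the study's methods, reads were checked with FastQC 0.11.9, trimmed with Trimmomatic, aligned with STAR 2.7.0b to the bovine genome and counted with featureCounts of Subread 2.0.3. The strand setting and annotation release are not given in the sources used here. Counts were divided by column totals to obtain CPM.

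Day-4 groups were compared in R 4.3.3 with edgeR 4.0.16 (TMM scaling, 1 coefficient per group, robust quasi-likelihood fit) after genes under 1 CPM in all but 2 or fewer libraries had been set aside, with Benjamini-Hochberg adjustment over all genes tested. Standard errors were derived from the F statistics. The fit on 2 libraries per group asked for 1 CPM in 2 libraries. Alternatives used DESeq2 1.42.0 (size factors, and its own tests), other filters, a likelihood ratio test in edgeR (observation-weighted), blocking on replicate number, a fit on all 14 libraries, an FDR under 0.01, and each library left out in turn. The test was tried on simulated counts. Groups and replicate numbers came from the sample titles.

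The genes, the limits and the gene lists were chosen with earlier results of these data known. Named genes were those of highest mean Day-4 CPM, with the lowest FDR and no overlap, nearest to a limit, or with the lowest or highest coefficient of variation, which together covered all 16. Gene and marker lists fixed by symbol could not be applied. The RefSeq table used here (assembly ARS-UCD2.0) pairs 0 of 27607 IDs with a symbol, so no gene names, lengths, positions or sequences are given.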

Additional observations from a re-analysis of the deposited data

How the results depend on the processing

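The number of genes moved with the limits. With 0 counts allowed on Day 2 there were 0 genes, and with at most 10 counts 53. With at least 5 CPM on Day 4 there were 41 and with at least 20 CPM 5. TMM-scaled CPM gave 19. Each library left out in turn gave 16 to 24 genes, and the 3 middle libraries left out together gave 16. The same 16 were included in each case, which the rule forces, as leaving out a library can only add genes. The share of Day-4 counts rose to 0.116% without the 10 genes of highest counts.

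The share of all genes called is given in brackets. Across the 3 Day-4 groups, 5 of the 16 genes passed. DESeq2's test gave 9 (33.4%), the weighted likelihood ratio test 8 (28.8%), the replicate block 2 (9.51%), the fit on 14 libraries 1 (8.69%), an FDR under 0.01 1 (4.8%), and 2 libraries per group 0 (1.12%). Leaving out each library gave 1 to 7. For DRY against LACT (3 genes) there were 5 with DESeq2 (21.4%), 1 with the replicate block (4.66%), 0 on 14 libraries (4.15%), 0 at an FDR under 0.01 (2.57%) and 0 with 2 libraries per group (0.668%), and 0 to 4 with a library left out. For LACT against IVC (1 gene) DESeq2 gave 3 (19.4%), the likelihood ratio test 2 (14.9%), a minimum of 10 counts in every library 2 (9.43%), 2 libraries per group 0 (0.429%), and a library left out 0 to 2. For DRY against IVC (4 genes) DESeq2 gave 7 (26.1%) and the likelihood ratio test 6 (20.8%). A minimum of 10 counts in every library gave 6 (14.8%), and each of these alternatives had 1 gene higher in DRY. The fit on 14 libraries gave 1 (6.16%), an FDR under 0.01 1 (3.73%), 2 libraries per group 0 (0.734%), and a library left out 1 to 7. No call changed direction under these alternatives. The cause was not tested.

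Deviations of same-numbered libraries from their group means correlated between -0.0536 and 0.158 over genes. Of 9 libraries, 1 correlated best with its own number. IVC replicate 1, DRY replicate 3 and LACT replicate 3 lay close to their group means for the 16 genes, the only genes for which this is given here. Over all genes, leaving out 1 of these 3 libraries left 5.25% to 5.73% called across groups. Leaving out another Day-4 library left 13.5% to 20.3%. Pairs holding these 3 libraries, among them the pair at 0.158, are therefore not taken to show or exclude pairing. Pairs without them gave 0.0345 (DRY and LACT replicate 1) and 0.0251, -0.0182 and -0.0536 (replicate 2). Pairing by number was not seen in these pairs and stays undecided for the others. The block left 2 genes across groups (9.51% of all genes) and 4 for DRY against IVC (7.75%). Depth limits the Day-2 levels, which rest on 4 to 11 reads per gene.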
